A study of Mus musculus with 6 samples.

Results

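Adipose genes are a small part of the RNA in a heart library. The genes described here were 8 rows of the deposited table, found by the Ensembl identifiers of *Ucp1*, *Cidea*, *Elovl3*, *Adipoq*, *Fabp4*, *Plin1*, *Cfd* and *Retn*. All 8 were listed, out of 16018 genes. *Ucp1*, *Cidea* and *Elovl3* were treated as the 3 brown fat genes and the other 5 as general adipocyte genes. The libraries came from hearts of 3 female WT and 3 female NBCe1-B/C KO (KOb/c) mice, all 4 to 5 weeks old and with no treatment named. Both groups came from crosses of heterozygous parents on the C57BL/6J background, and the KOb/c mice lacked the B and C variants of the sodium bicarbonate cotransporter NBCe1 (*Slc4a4*) from birth in every tissue. Values are normalized counts, that is, reads per gene after each library's size factor was divided out, and they are not scaled to gene length.

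White adipocytes store triglyceride in a single large droplet coated by perilipin and secrete hormones such as adiponectin. Brown adipocytes hold many small droplets and many mitochondria, and burn fatty acids for heat when uncoupling protein 1 lets protons leak back across the inner mitochondrial membrane. In the mouse, fat lies on the pericardium, in the grooves of the heart and around the great vessels, and brown fat lies close to the thoracic aorta. Some genes used in fat are also used by other heart cells. The fatty acid carrier FABP4 is a known product of capillary endothelium, and genes of fatty acid oxidation are shared by brown fat and heart muscle.

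*Ucp1* and *Adipoq* were each set beside other genes that varied between these libraries. The 250 bases before their RefSeq start sites are therefore shown (GRCm38.p6, 5′ to 3′ on the strand of the gene). The *Ucp1* stretch is chr8:83290098-83290347 on the plus strand, and the *Adipoq* stretch is chr16:23146286-23146535 on the plus strand. Capitals mark AGGTCA, the half-site of nuclear receptors, and CCAAT, the CCAAT box, on either strand.
Ucp1: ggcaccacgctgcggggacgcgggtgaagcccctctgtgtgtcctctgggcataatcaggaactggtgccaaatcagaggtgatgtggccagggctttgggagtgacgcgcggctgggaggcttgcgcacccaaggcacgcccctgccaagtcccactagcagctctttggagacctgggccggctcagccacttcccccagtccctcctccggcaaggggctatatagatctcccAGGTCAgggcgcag
Adipoq: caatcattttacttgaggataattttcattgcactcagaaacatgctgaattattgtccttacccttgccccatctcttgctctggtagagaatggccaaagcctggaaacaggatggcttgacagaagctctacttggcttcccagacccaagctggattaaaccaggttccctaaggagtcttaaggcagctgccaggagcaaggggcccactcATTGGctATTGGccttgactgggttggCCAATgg
The *Ucp1* stretch held AGGTCA once, from 14 to 9 bases before the start. The *Adipoq* stretch held CCAAT once on the strand of the gene, from 7 to 3 bases before the start, and its reverse form ATTGG at 34 to 30 and at 27 to 23 bases before the start. Over 32851 promoters of the same length, 14.0% held AGGTCA and 33.8% held CCAAT on either strand. The letters TATAAA (12.4% of promoters) and TTGCGCAA (0.164%) were found in neither stretch. None of the 4 motifs was found in the matching stretches of *Plin1*, *Cfd* and *Retn*. The promoters of *Cidea*, *Elovl3* and *Fabp4* are not shown.

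The libraries held between 41364857 and 49100802 reads on genes. *Slc4a4*, the targeted gene, was listed at 264.0, 944.8 and 268.7 normalized counts in KOb/c 1, 2 and 3, and at 675.1, 822.2 and 788.8 in WT 1, 2 and 3. The library labelled KOb/c 2 was thus above every WT library. The row counts the whole gene, with no split by variant. That library is named by its label only, and the genotype comparison of the 8 genes and their relations to *Adipoq* are also given without it. Heart muscle genes were high in all 6 libraries, and the 7 measured markers summed to between 2414106 and 3020647 normalized counts. None of the 7 was lowest in KOb/c 1.

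*Ucp1* (ENSMUSG00000031710, chr8:83290352-83298452, plus strand) encodes uncoupling protein 1, which defines brown fat. It was listed at 17.9, 723.6 and 2948 normalized counts in KOb/c 1, 2 and 3, and at 524.5, 1888 and 1097 in WT 1, 2 and 3. The library of KOb/c 1 was far below the rest, KOb/c 3 was the highest of all, and the groups overlapped. In KOb/c 1 the value rested on 18 reads (95% exact Poisson interval 10.7 to 28.4, counting error only) and was 1.24% of the mean of the other 5 libraries. Means were 1229.8 ± 1529 in KOb/c and 1170 ± 685 in WT (SD, n = 3 each), so the spread within either group was larger than the difference between the means. Fewer cells of a type and less RNA per cell cannot be told apart in such bulk libraries, here and for every gene that follows.

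*Cidea* (ENSMUSG00000024526, chr18:67343604-67367785, plus strand) encodes a lipid droplet protein that is abundant in brown fat. It stood at 939.9, 1162 and 1911 normalized counts in KOb/c 1, 2 and 3, and at 1230, 1801 and 1125 in WT 1, 2 and 3. KOb/c 1 was again the lowest library and KOb/c 3 the highest, but the whole range was 2.03-fold within KOb/c. KOb/c 1 held 65.0% of the mean of the other 5, so *Cidea* was still listed at 939.9 in the library where *Ucp1* was at 17.9.

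*Elovl3* (ENSMUSG00000038754, chr19:46131897-46135694, plus strand) encodes a fatty acid elongase known from brown fat in the cold. It was the lowest of the 8 genes, at 0.99, 12.4 and 26.6 normalized counts in KOb/c 1, 2 and 3, and at 2.05, 37.4 and 16.5 in WT 1, 2 and 3. These values were 1, 12 and 30 reads in KOb/c and 2, 36 and 16 reads in WT. KOb/c 1 and WT 1 were both near 0, while the remaining 4 libraries were not. With 1 read in KOb/c 1 (95% exact Poisson interval 0.0253 to 5.57 reads), the depth there cannot separate that library from WT 1.

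*Adipoq* (ENSMUSG00000022878, chr16:23146536-23158028, plus strand) encodes adiponectin, a hormone made by adipocytes. It was listed at 15.9, 248.1 and 569.4 normalized counts in KOb/c 1, 2 and 3, and at 203.9, 532.2 and 284.6 in WT 1, 2 and 3. The order of the libraries was that of *Ucp1*: KOb/c 1 lowest, then WT 1, KOb/c 2, WT 3, WT 2 and KOb/c 3. KOb/c 1 held 4.32% of the mean of the other 5.

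*Plin1* (ENSMUSG00000030546, chr7:79720218-79732903, minus strand) encodes perilipin 1, the coat of the adipocyte droplet. It stood at 26.8, 321.5 and 1001 normalized counts in KOb/c 1, 2 and 3, and at 285.8, 686.1 and 349.6 in WT 1, 2 and 3. Its libraries fell in the same order as those of *Adipoq*, and KOb/c 1 held 5.07% of the mean of the other 5.

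*Cfd* (ENSMUSG00000061780, chr10:79890853-79892655, plus strand) encodes adipsin, a complement protease secreted by adipocytes. It was listed at 42.7, 1131 and 648.3 normalized counts in KOb/c 1, 2 and 3, and at 456.9, 1427 and 655.8 in WT 1, 2 and 3. KOb/c 1 was lowest here too, at 4.94% of the mean of the other 5, but KOb/c 3 held 0.573 times the level of KOb/c 2, the reverse of *Ucp1*, *Adipoq* and *Plin1*.

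*Retn* (ENSMUSG00000012705, chr8:3655770-3660110, plus strand) encodes resistin, another secreted product of mouse adipocytes. Its values were 9.92, 54.8 and 61.2 normalized counts in KOb/c 1, 2 and 3, and 44.1, 115.4 and 91.8 in WT 1, 2 and 3. KOb/c 1 held 13.5% of the mean of the other 5, on 10 reads.

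*Fabp4* (ENSMUSG00000062515, chr3:10204088-10208576, minus strand) was the most abundant of the 8 and the most even. It stood at 16600, 21490 and 20964 normalized counts in KOb/c 1, 2 and 3, and at 24901, 24724 and 22799 in WT 1, 2 and 3. Every KOb/c library was below every WT library. KOb/c 1 held 72.3% of the mean of the other 5, and the highest WT library was only 1.09 times the lowest.

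**Figure D1:**
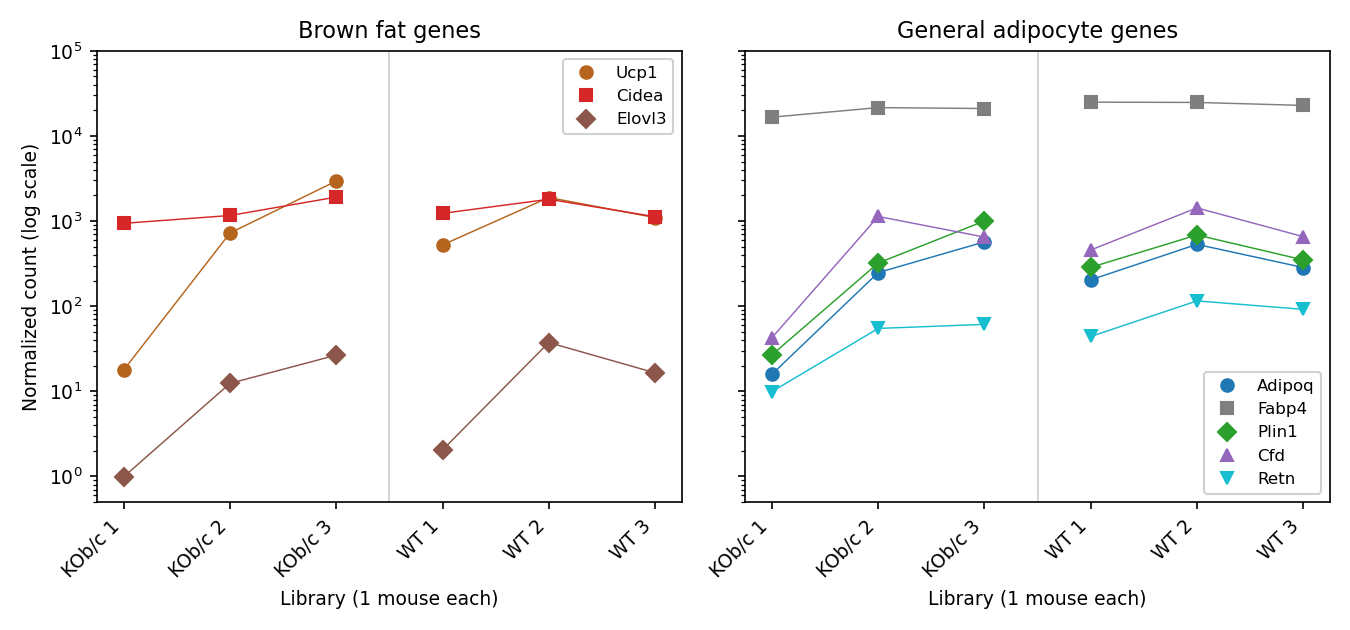
Normalized counts (log scale) of the 3 brown fat genes and the 5 general adipocyte genes in each of the 6 heart libraries; each point is 1 library, and lines join libraries of a group to guide the eye only. All 8 genes were lowest in KOb/c 1, by most for *Ucp1* (17.9) and least for *Fabp4* (16600).

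The shared feature of the 8 genes was thus their low level in a single library. All 8 were lowest in KOb/c 1, and 25.5% of all 16016 tested genes were lowest there. The level in KOb/c 1 was between 1.24% and 72.3% of the mean of the other 5 libraries, against a median of 99.3% over all genes. *Fabp4* and *Cidea* kept most of their level, and the other 6 genes were at 13.5% or less.

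The WT libraries differed among themselves as well. From the highest to the lowest WT library, the ratio was 18.3 for *Elovl3*, 3.60 for *Ucp1*, 3.12 for *Cfd*, 2.62 for *Retn*, 2.61 for *Adipoq*, 2.40 for *Plin1*, 1.60 for *Cidea* and 1.09 for *Fabp4*. A ratio at least as large as that of *Ucp1* was found for 1.85% of genes, and one at least as large as that of *Fabp4* for 78.8%. The libraries rose from WT 1 to WT 3 to WT 2 for 6 of the 8 genes, all but *Cidea* and *Fabp4*, and for 17.7% of all genes.

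On a scale of reads per kilobase of the longest annotated transcript, scaled to the reads of each library (RPKM), the mean levels over the 6 libraries were 118 for *Fabp4*, 27.9 for *Cidea*, 18.2 for *Cfd*, 16.9 for *Ucp1*, 5.52 for *Adipoq*, 3.64 for *Plin1*, 1.27 for *Retn* and 0.196 for *Elovl3*. The longest transcript of *Fabp4* has 4231 bases and takes in nearly the whole gene, so its level per length is a low estimate. *Fabp4* was first in every library. *Cidea*, *Cfd* and *Ucp1* overlapped: their ranges on this scale were 17.5 to 39.4, 0.963 to 35.9 and 0.227 to 41.4, and in KOb/c 3 *Ucp1* was above *Cidea*.

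Genotypes were then compared to see whether loss of NBCe1-B/C changed these genes. No adjusted p of limma passed 0.05 for any of the 8 genes, nor for any of the 16016 genes tested (0.0%), and the lowest adjusted p over all genes was 0.0815. At an unadjusted p under 0.05, limma counted 3764 genes (23.5%) and edgeR 3837, and edgeR also had 0 genes past the adjusted threshold. *Fabp4* was the only 1 of the 8 at an unadjusted p under 0.05.

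*Fabp4* had a log2 fold change of -0.30 (SE 0.10), with means of 19685 ± 2684 in KOb/c and 24141 ± 1166 in WT (SD, n = 3 each). The limma adjusted p was 0.131, and the exact two-sided permutation test gave p = 0.10, the smallest that 3 against 3 allows. It was also the only 1 of the 8 whose groups did not overlap, and 30.2% of all genes did not overlap. DESeq2 gave an adjusted p of 0.0372 for *Fabp4*, in a fit that called 14.8% of the genes to which it gave an adjusted p, and edgeR gave 0.141. Without KOb/c 1 the log2 fold change was -0.18 (SE 0.07), with a limma adjusted p of 0.250. Corrected for the length and GC content of transcripts, it was -0.33, with an adjusted p of 0.283.

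The other 7 genes had lower log-scale means in KOb/c, and none passed a threshold. The log2 fold changes were -1.59 (SE 1.52) for *Ucp1*, -0.09 (SE 0.26) for *Cidea* and -0.49 (SE 1.12) for *Elovl3*, with limma adjusted p-values of 0.572, 0.877 and 0.828. They were -1.23 (SE 1.08) for *Adipoq*, -0.98 (SE 1.07) for *Plin1*, -1.25 (SE 1.04) for *Cfd* and -1.23 (SE 0.64) for *Retn*, with limma adjusted p-values of 0.531, 0.628, 0.509 and 0.286. The exact two-sided permutation p of these 7 genes ranged from 0.30 for *Retn* to 1.0 for *Ucp1* and *Plin1*. That test compares mean normalized counts, not means of logs, so it does not test the log2 fold changes beside it. On the count scale the KOb/c mean was above the WT mean for *Ucp1* (1229.8 against 1170) and *Plin1* (449.9 against 440.5). The median was -0.49 over the 3 brown fat genes and -1.23 over the 5 general adipocyte genes, against -0.004 over all genes. The brown fat median is the value of *Elovl3*, which lay between *Ucp1* at -1.59 and *Cidea* at -0.09.

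The direction rested on KOb/c 1. Without that library the log2 fold changes were 0.51 (SE 0.63) for *Ucp1*, 0.14 (SE 0.24) for *Cidea*, 0.60 (SE 0.96) for *Elovl3*, 0.26 (SE 0.44) for *Adipoq*, 0.47 (SE 0.49) for *Plin1* and 0.18 (SE 0.43) for *Cfd*. All 6 had turned from below to above 0, with limma adjusted p-values from 0.668 to 0.866. *Retn* stayed below 0, at -0.42 (SE 0.38), as did *Fabp4*. The medians then were 0.51 for brown fat and 0.18 for general adipocyte genes. Without the library labelled KOb/c 2, the 8 log2 fold changes lay between -2.16 for *Cfd* and -0.02 for *Cidea*, with limma adjusted p-values from 0.146 to 0.982, and the medians were -0.78 for brown fat and -1.59 for general adipocyte genes. The 2 count-based tests, which compare mean counts rather than means of logs, gave 0.08 (edgeR) and 0.07 (DESeq2) for *Ucp1* and 0.04 and 0.03 for *Plin1*, with the sign opposite to limma.

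**Figure D2:**
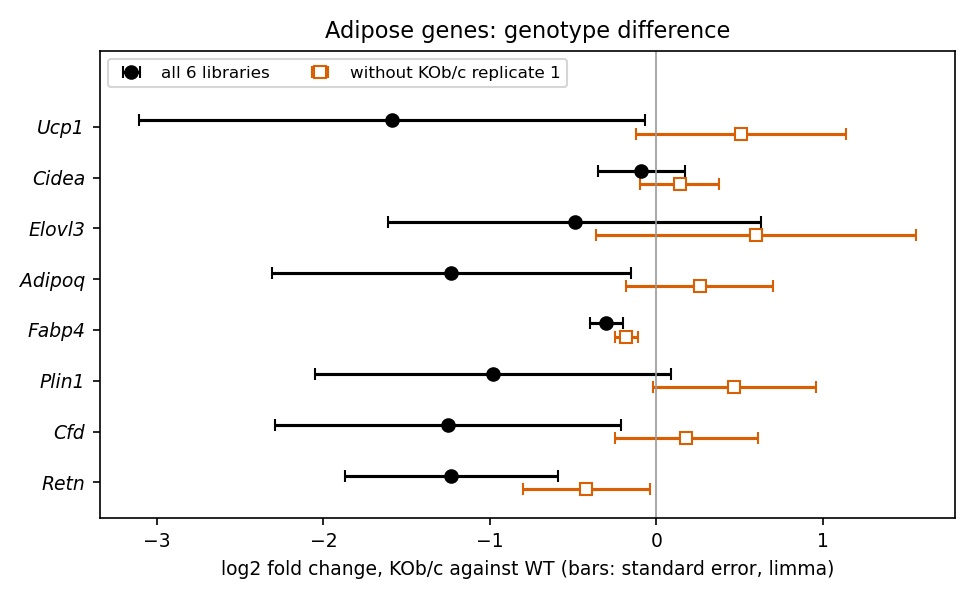
Log2 fold change of KOb/c against WT for the 8 genes, with the standard error from limma, in all 6 libraries (filled circles) and without KOb/c replicate 1 (open squares). Without that library 6 genes moved from below 0 to above it, and *Fabp4* and *Retn* stayed below 0.

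Across the 6 libraries, the general adipocyte gene *Adipoq* was set against each of the other 7 genes on the log2(normalized count + 1) scale, with exact permutation p-values over 720 orders and Benjamini-Hochberg adjustment over these 7 relations. *Ucp1* followed it closely, with Pearson's r = 1.00 (p = 0.00139, adjusted 0.00486) and Spearman's rho = 1.00 (p = 0.00278, adjusted 0.00973). *Plin1* did the same, with r = 0.99 and rho = 1.00 and the same permutation p-values. Without KOb/c 1 and KOb/c 3, the libraries farthest from the median of *Adipoq*, r over the remaining 4 was 0.97 for *Ucp1* and 0.99 for *Plin1*. The brown fat gene *Ucp1* and the general adipocyte genes *Adipoq* and *Plin1* thus rose and fell together, within WT and within KOb/c. Each group held only 3 libraries, and the other general adipocyte genes followed *Adipoq* less closely.

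*Elovl3* followed *Adipoq* with r = 0.85 (permutation p = 0.00278, adjusted 0.00649) and rho = 0.94 (permutation p = 0.0167, adjusted 0.0390), and r = 0.88 over the 4 libraries. *Cidea* gave r = 0.80 (permutation p = 0.0236, adjusted 0.0330) and rho = 0.77 (permutation p = 0.103, adjusted 0.144), with r = 0.87 over the 4. *Cfd* and *Retn* had r = 0.94 each (permutation p = 0.0333 and 0.0208, adjusted 0.0389 and 0.0330), with rho = 0.60 (permutation p = 0.242, adjusted 0.282) and 0.83 (permutation p = 0.0583, adjusted 0.102). For both the relation rested in part on KOb/c 1, since r was 0.42 for *Cfd* and 0.58 for *Retn* without it, although it was 0.77 and 0.90 over the 4 libraries without KOb/c 1 and KOb/c 3. *Fabp4* was not related to *Adipoq* past the threshold, with r = 0.80 (permutation p = 0.119) and rho = 0.09 (permutation p = 0.919). Without KOb/c 1 and KOb/c 3 its r was 0.29, and without KOb/c 1 alone -0.23. Without the library labelled KOb/c 2, r was 0.81 for *Fabp4* and between 0.83 and 1.00 for the other 6 genes.

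**Figure D3:**
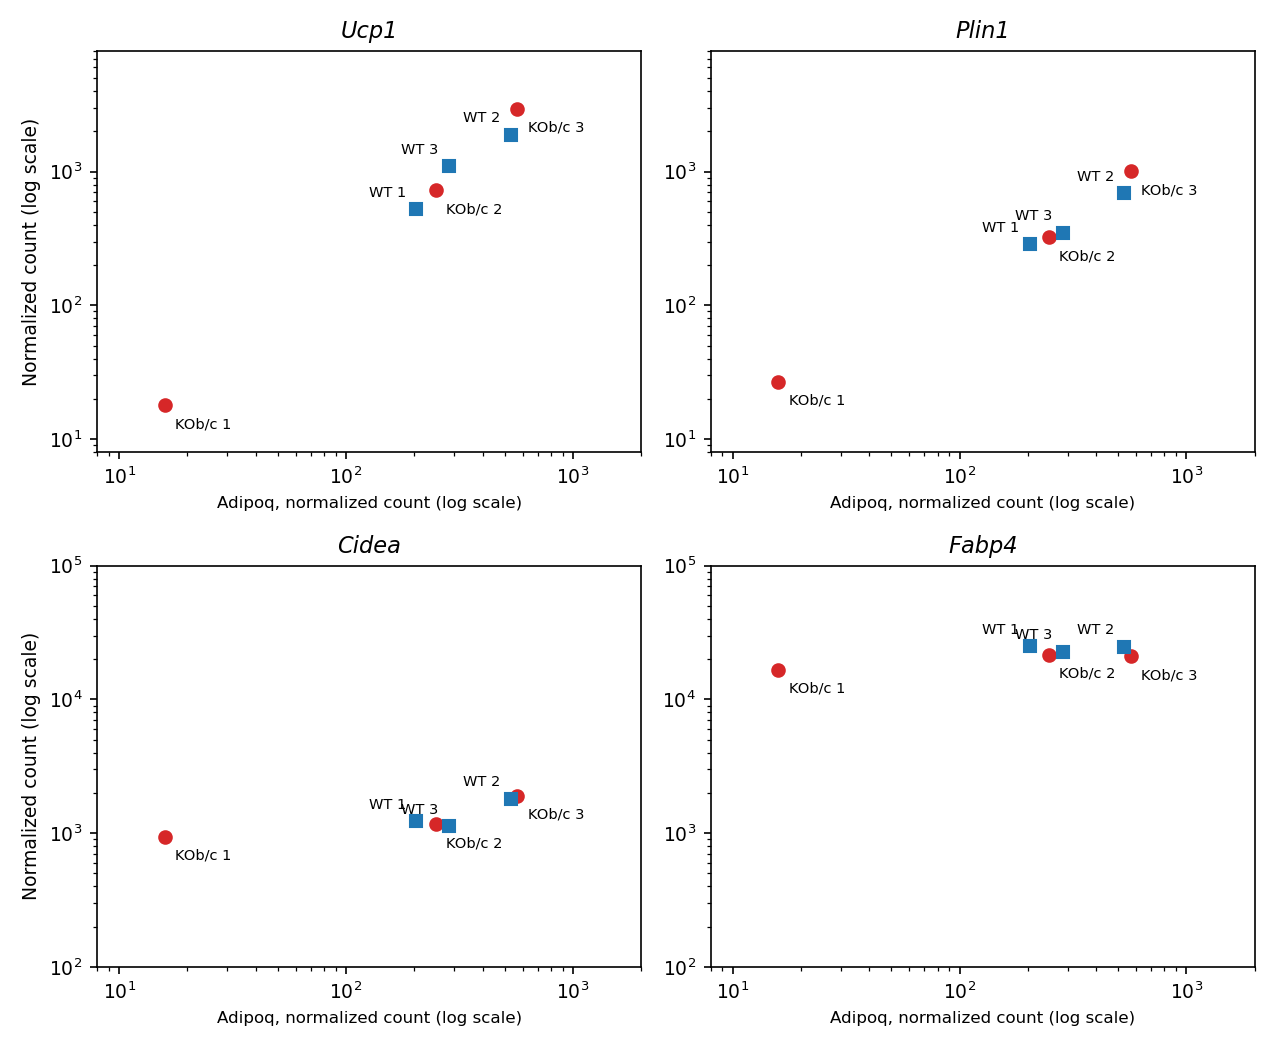
*Ucp1*, *Plin1*, *Cidea* and *Fabp4* against *Adipoq* in each library, both as normalized counts on log scales, with circles for KOb/c and squares for WT. *Ucp1* and *Plin1* rose with *Adipoq* over all 6 libraries, whereas *Cidea* (939.9) and *Fabp4* (16600) remained high in KOb/c 1, where *Adipoq* was at 15.9.

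The proportions among the genes were not fixed. On the scale per transcript length, the ratio of *Plin1* to *Adipoq* was the most even, between 0.563 and 0.807 over all 6 libraries. *Ucp1* over *Adipoq* was 2.03, 2.80 and 3.04 in WT 1, 2 and 3, and 0.888, 2.30 and 4.09 in KOb/c 1, 2 and 3. *Cfd* over *Adipoq* was 3.14, 3.76 and 3.23 in WT, and 3.77, 6.39 and 1.60 in KOb/c 1, 2 and 3. The WT libraries were close to each other in both ratios, and the highest of all in *Ucp1* was the lowest of all in *Cfd*.

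*Ucp1* over *Cfd*, a brown fat gene against a general adipocyte gene, was therefore 0.236, 0.361 and 2.56 in KOb/c 1, 2 and 3, and between 0.647 and 0.943 in WT. *Retn* over *Adipoq* was between 0.122 and 0.366 outside KOb/c 1 and 0.709 within it, on 10 reads. *Cidea* over *Ucp1* was 77.2 in KOb/c 1 and between 0.951 and 3.44 in the other 5 libraries. *Fabp4* over *Adipoq* was 319 in KOb/c 1 and between 11.2 and 37.3 elsewhere. In the library with least *Adipoq*, most of the *Cidea* and *Fabp4* signal was still there.

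The genes whose pattern was most like *Ucp1* were sought among 1460 other genes with a mean of at least 10 and an SD of at least 0.5 on the log2 scale, by Pearson's r over the 6 libraries, as a description. The 10 nearest, from r = 0.995 to 0.979, were *Col6a5*, *Lgals12*, *Cidec*, *Stx11*, *Pck1*, *4933431C10Rik*, *Chdh*, *Adig*, *Klc3* and *1700109H08Rik*. Without KOb/c 1 their r ranged from 0.83 for *Klc3* to 0.99 for *Stx11*. Some were near the floor: *Col6a5* was at 0.99 normalized counts in KOb/c 1 and 8.27 to 18.6 elsewhere. *Klc3* was at 2.98 to 18.7 and *4933431C10Rik* at 3.97 to 20.4 over all libraries. The 10 nearest to *Adipoq*, from r = 0.998 to 0.982, were *Cidec*, *Lgals12*, *Col6a5*, *Adig*, *Chdh*, *Klc3*, *Pck1*, *Ces1f*, *Klb* and *Stx11*. Without KOb/c 1 their r ranged from 0.86 for *Klc3* to 0.99 for *Ces1f*. *Cidec* encodes a droplet protein of white adipocytes, *Lgals12* a galectin of adipocytes, *Adig* adipogenin and *Klb* the coreceptor of FGF21. The remaining genes are given here by name only, and whether their RNA came from adipocytes was not tested. *Lgals12* was listed at 1.98, 38.2 and 73.6 normalized counts in KOb/c 1, 2 and 3, and at 22.5, 66.5 and 39.2 in WT 1, 2 and 3. *Klb* was listed at 0 in KOb/c 1 and between 9.28 and 41.7 elsewhere.

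In wider lists of adipose genes, some members were in KOb/c 1 below 5.07% (the share of *Plin1*) of their mean elsewhere, and others were at or above that mean. The lowest, *Pck1* at 2.49%, was not as low as *Ucp1*. As limma passed no gene of the table, its adjusted p singles out no member. DESeq2 calls are therefore given for each list. They are to be read against the 14.8% it called of the genes to which it gave an adjusted p. A gene without an adjusted p could not be called. Of 12 brown fat genes held to be low in heart muscle, 10 were listed (*Zic1* and *Lhx8* were not), 4 were lowest in KOb/c 1, and the median log2 fold change was 0.04 (0.20 without KOb/c 1). DESeq2 called 2 of the 10, *Kcnk3* and *Acot11*, both higher in KOb/c (adjusted p = 0.00643 and 0.0157). It gave no adjusted p to *Adrb3*, *Otop1* and *Slc27a2*. *Adrb3*, the adrenergic receptor of fat, was listed at 1.98, 47.6 and 77.2 in KOb/c 1, 2 and 3, and at 17.4, 146.6 and 56.7 in WT 1, 2 and 3. *Otop1*, a proton channel known in brown fat, was at 4.96, 12.4 and 143.7 in KOb/c and 16.4, 89.4 and 26.8 in WT. *Slc27a2*, a fatty acyl-CoA synthetase, was at 0.99, 5.17 and 92.2 in KOb/c and 26.6, 33.3 and 14.4 in WT. These 3 had their lowest value in KOb/c 1, as *Ucp1* did. The median level of the 10 in that library was 89.2% of the mean elsewhere, but the list was split. *Adrb3* was at 2.87%, *Slc27a2* at 2.89% and *Otop1* at 8.59%. The rest ran from *Dio2* at 70.7% to *Acot11* at 139%, with *Kcnk3* at 126%.

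The potassium channel gene *Kcnk3*, the highest of that list, was between 9379 and 15629 and highest in KOb/c 1, so it did not behave as a gene low in heart. *Acot11* (765.1 to 1416), *Gk* (1290 to 1633) and *Prdm16* (705.3 to 1030) were also well above 0 in every library. The median of the list therefore mixes such genes with the low ones. Of 10 brown fat genes shared with heart muscle, 3 were lowest in KOb/c 1, with a median log2 fold change of 0.05 (0.08 without KOb/c 1). DESeq2 called 2 of the 10, the cytochrome oxidase subunit genes *Cox8b* and *Cox7a1*, both lower in KOb/c (adjusted p = 0.00949 and 0.0328). *Fabp3*, the fatty acid carrier of heart muscle, was the highest, with 96201 to 123156 normalized counts. *Ppargc1a*, a coactivator of mitochondrial genes, had 0.32, *Pank1*, which starts coenzyme A synthesis, 0.23, and *Cox8b* -0.29, with limma adjusted p-values of 0.192, 0.114 and 0.0869.

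Of 10 regulators and identity genes of adipocytes, 8 were lowest in KOb/c 1, with a median of -0.10 (0.10 without KOb/c 1), and DESeq2 called 0. DESeq2 gave no adjusted p to *Adig*, *Acvr1c*, *Nnat* and *Sncg*. *Adig* was at 1.98 normalized counts in KOb/c 1 and at 35.9 to 125.8 in the other 5, and *Car3*, a carbonic anhydrase abundant in adipocytes and slow muscle, at 135.0 against 826.7 to 2668. *Cebpb*, a transcription factor of many cell types, was highest in KOb/c 1, at 948.8. Of 7 secreted factors, 5 were listed (*Lep* and *Itln1* were not) and 4 were lowest in KOb/c 1, with a median of -0.51 (-0.08 without it). *Rbp4*, the retinol carrier, was at 10.9 in KOb/c 1 and 33.1 to 111.7 elsewhere, and *Retnla* at 45.7 against 104.5 to 234.9. *Apln* (apelin) had a log2 fold change of -0.51 with a limma adjusted p of 0.129, and was the only 1 of the 5 called by DESeq2 (adjusted p = 0.0152). To *Rbp4*, *Nrg4* and *Retnla* DESeq2 gave no adjusted p. *Angptl4*, an inhibitor of lipoprotein lipase, was at 5041 in the library labelled KOb/c 2 and between 616.3 and 2205 in the other 5. Its log2 fold change was 0.31 with that library and -0.50 without it.

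The receptors through which adiponectin acts did not share the dip in KOb/c 1. *Adipor1* was between 8811 and 9895 normalized counts, *Adipor2* between 4279 and 5142, and *Cdh13*, T-cadherin, which binds adiponectin, between 6347 and 8536. Their log2 fold changes were -0.09, 0.15 and 0.24, with limma adjusted p-values of 0.385, 0.216 and 0.149. None of the 3 was lowest in KOb/c 1, and DESeq2 called 0 of them.

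Among 9 genes of lipid droplets and lipolysis, 2 were lowest in KOb/c 1, and the median was 0.03 (0.16 without it). *Cidec* was at 21.8 in KOb/c 1 and between 228.5 and 509.9 in the other 5. *Plin4* (log2 fold change 0.46), *G0s2* (-0.46), an inhibitor of adipose triglyceride lipase, and the lipase gene itself, *Pnpla2*, the highest of the list at 10358 to 14237, showed no such dip. DESeq2 called *Plin4* alone, higher in KOb/c (adjusted p = 0.0113). Among 5 genes of fatty acid uptake 1 was lowest in KOb/c 1, *Fabp5*, which had a log2 fold change of -0.51 with a limma adjusted p of 0.0844. *Lpl*, lipoprotein lipase and the highest of that list, was at 118918 to 169209 normalized counts, and *Gpihbp1*, its capillary anchor, and *Cd36*, a fatty acid transporter, had -0.31 and 0.30. The median over these 5 was 0.13 (0.17 without KOb/c 1, 0.06 without the library labelled KOb/c 2). DESeq2 called *Lpl* and *Cd36* higher in KOb/c (adjusted p = 0.0339 and 0.0205) and *Fabp5* lower (0.00305).

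Among 15 genes of fatty acid and triglyceride synthesis, 7 were lowest in KOb/c 1, the median was 0.20 (0.37 without it), and the WT order was that of *Ucp1* in 9. *Pck1*, which supplies glycerol for triglycerides in fat, was at 19.8, 581.0 and 1763 in KOb/c 1, 2 and 3, and at 326.8, 882.5 and 439.3 in WT 1, 2 and 3. *Acaca*, acetyl-CoA carboxylase, was at 2765 in KOb/c 3, 1547 in WT 2 and between 518.4 and 839.4 in the other 4. *Scd1*, the stearoyl-CoA desaturase gene, and *Fasn*, fatty acid synthase, both chosen after their values were seen, were at 24741 and 16862 in KOb/c 3, at 8778 and 8050 in WT 2, and between 1014 and 3319 for *Scd1* and 1757 and 2791 for *Fasn* in the other 4. KOb/c 3 and WT 2 were also the libraries with most *Ucp1*, *Adipoq* and *Plin1*. *Dgat2*, the highest of the list, was at 13160 to 17621, and *Gpam*, which begins triglyceride synthesis, had a log2 fold change of 0.56 with a limma adjusted p of 0.0815. DESeq2 called 2 of the 15, *Gpam* (adjusted p = 2.65e-05) and *Srebf1* (0.0266), both higher in KOb/c.

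**Figure D4:**
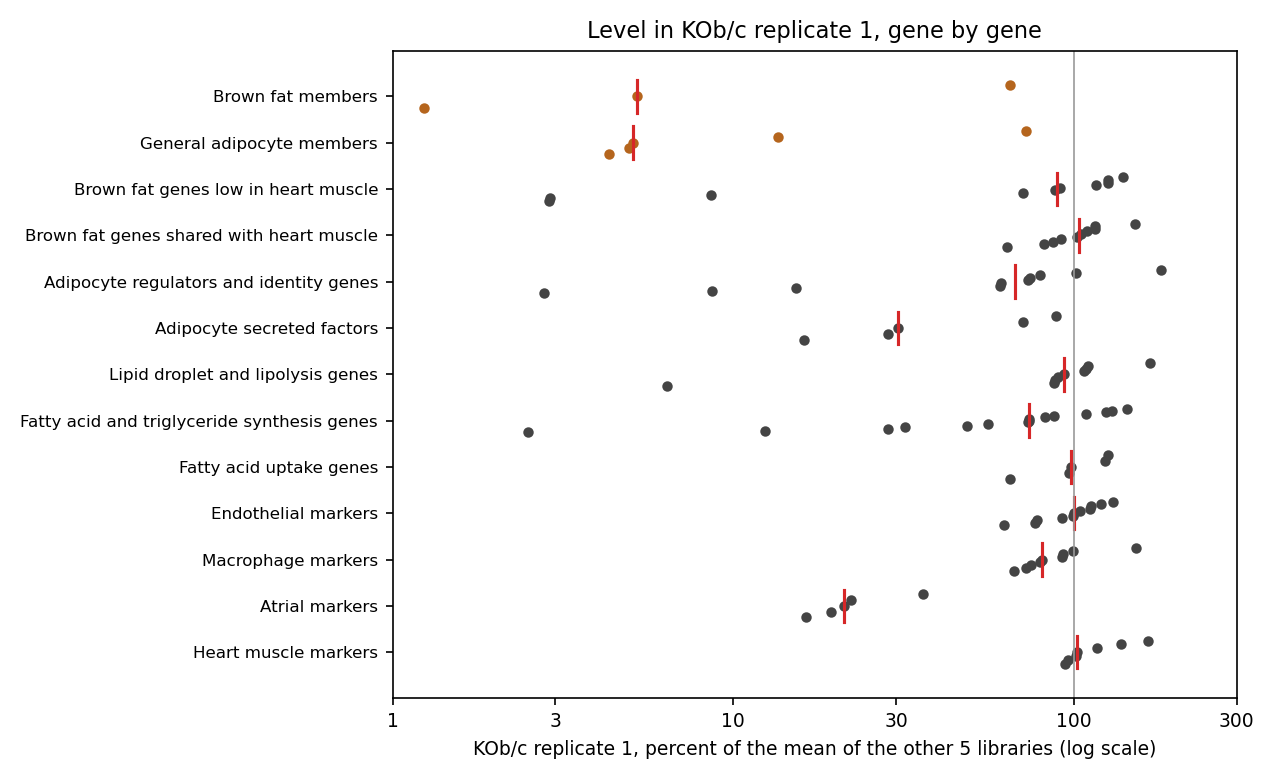
Level in KOb/c replicate 1 as a percent of the mean of the other 5 libraries (log scale), with 1 point per gene, a red line at the median of each list and a grey line at 100. The 8 members (brown points) ran from 1.24% to 72.3%; points far to the left in the wider lists include *Pck1* (2.49%), *Adig* (2.79%) and *Adrb3* (2.87%), and all 5 atrial markers were below 100.

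Other tissue that can come with a heart moved with these genes in part. The 5 atrial markers summed to 15730 normalized counts in KOb/c 1 and 24721 in WT 1, against 74008 to 111699 in the other 4 libraries, and 4 of the 5 were lowest in KOb/c 1. *Nppa*, atrial natriuretic peptide and the highest of them, was at 8086 and 10666 in KOb/c 1 and WT 1 and at 41543 to 61038 elsewhere. KOb/c 1 and WT 1 were the same libraries that held least *Ucp1*, *Adipoq* and *Plin1*, but WT 3 had more atrial RNA than WT 2 and less of those 3 genes. *Sln*, *Myl4* and *Bmp10*, all lower on the log scale in KOb/c (-0.70, -0.50 and -1.20), had adjusted p-values of 0.619, 0.678 and 0.688 by limma. DESeq2 called 0 of the 5. The median of the list was -0.50, 0.23 without KOb/c 1 and -0.77 without the library labelled KOb/c 2. The part of atrial or other attached tissue in the results for the 8 genes was not tested.

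Endothelial markers summed to 63228 to 70334 normalized counts for 11 genes. The sum was highest in KOb/c 1, but without *Aqp1*, its largest member, it was 46861 there, within the range of 45405 to 48939 of the other 5. In KOb/c 1 the median level of the 11 was 99.6% of the mean of the other 5, where *Fabp4* was at 72.3%. Lowest in that library were 3 of the 11, against 25.5% of all genes. These were *Cldn5*, *Egfl7* and *Emcn*, at 62.2%, 76.8% and 77.7%. The median log2 fold change of the 11 was -0.12 (-0.11 without KOb/c 1), with 5 higher and 6 lower in KOb/c. *Aqp1*, a water channel, was at 23473 in KOb/c 1 and 17670 to 18524 elsewhere. *Egfl7* and *Cldn5* had -0.44 and -0.36 and *Cdh5* (VE-cadherin) 0.25, with limma adjusted p-values of 0.0815, 0.284 and 0.105. DESeq2 called *Egfl7* lower (adjusted p = 0.000619) and *Cdh5* and *Tek* higher in KOb/c (0.0266 and 0.0360). The 9 macrophage markers summed to 13217 in KOb/c 1 and 15060 to 16365 elsewhere, and 6 were lowest in KOb/c 1. *Lyz2*, the highest, was at 4479 in KOb/c 1 and 5640 to 6774 elsewhere, and the complement genes *C1qb* and *C1qa* had -0.39 and -0.35 and *Cd163* 0.35. The median of that list was -0.14 (-0.04 without KOb/c 1), and DESeq2 called *C1qa*, *C1qb* and *Lyz2*, all lower in KOb/c (adjusted p = 0.00373, 0.00458 and 0.0434). Both cell types can also hold *Fabp4*, and their part in its values was not tested.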

How the data were processed

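The authors deposited 1 table of normalized counts, a signal per gene in 6 heart libraries (RNAseq, total RNA). The submitters' processing notes name Trimmomatic 0.36, STAR 2.5.2b, featureCounts of Subread 1.5.2, DESeq2 and GRCm38. The annotation and strand setting are not given in the sources used here, so reads of overlapping genes cannot be told apart. Dividing by the value of 1 read gave whole reads for 100% of values in all 6 libraries (tolerance 0.001).

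Groups and replicate numbers came from the sample labels. Each group is described as 3 mice, so p-values measure the spread between these animals. No 2 libraries were taken as 1 sample. Symbols (15980 genes), positions and transcript lengths came from GENCODE M21 (GRCm38), and promoters from RefSeq (GRCm38.p6). Promoter entries of 5 of the 8 genes were used.

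The test of genotype was limma 3.58.1 in R 4.3.3, fitted to log2(normalized count + 1) of the 16016 genes whose mean was 10 or more. It allowed for a variance trend and was two-sided. Adjustment (Benjamini-Hochberg) was over all genes, and the threshold was 0.05. Fold changes on this scale are understated for low genes. All 8 genes passed this filter. Single genes also had exact permutation tests of the difference between mean normalized counts. edgeR 4.0.16 and DESeq2 1.42.0 were run on the recovered reads as alternatives, beside other pseudocounts, filters, scalings, weights, a replicate block, a length and GC correction, and leaving out each library. The scripts were checked on simulated counts.

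The 8 genes and the lists were chosen with earlier results of these data known. Named genes were the 8, *Slc4a4*, the 10 genes nearest to *Ucp1* and to *Adipoq*, the adiponectin receptors, and in each list the gene with the highest mean and up to 3 with the largest log2 fold change in either direction. List genes that DESeq2 called, and some to which it gave no adjusted p, were named as well. A few more, such as *Emcn*, were named after their values were seen. Lists are described by counts and medians and were not tested. Another list is not reported here. Intervals cover counting error only.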

Additional observations from a re-analysis of the deposited data

How the results depend on the processing

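Over 14 settings other than leaving out a library, 103 of 111 log2 fold changes of the 8 genes kept their direction and their side of the threshold, and limma adjusted p-values ranged from 0.107 to 0.987. *Elovl3* had no value with a mean of at least 50. Past the threshold were 0 genes in all with limma and edgeR, 1633 with DESeq2 and 3 without the library labelled KOb/c 2 (0 to 3 when each library was left out). DESeq2 gave *Fabp4* -0.29 with an adjusted p of 0.0372, past the threshold, and gave no adjusted p for *Elovl3*, *Retn* and 4968 genes in all. *Ucp1* turned to 0.08 with edgeR and 0.07 with DESeq2, and *Plin1* to 0.04 and 0.03. Sizes shrank under some settings without a change of sign: sample quality weights gave -0.47 for *Ucp1*, -0.44 for *Adipoq* and -0.19 for *Plin1*, with medians of -0.04 for brown fat and -0.44 for general adipocyte genes, and edgeR and DESeq2 gave medians of -0.05 and -0.29. *Cidea* turned to 0.04 with sample quality weights and to 0.09 with the length and GC correction. When each library was left out in turn, 8 of 48 values changed sign: 6 without KOb/c 1, and *Cidea* (0.12) and *Elovl3* (0.31) without WT 2. The ranges were -3.14 to 0.51 for *Ucp1*, -0.38 to 0.14 for *Cidea*, -1.52 to 0.60 for *Elovl3*, -2.28 to 0.26 for *Adipoq*, -0.37 to -0.18 for *Fabp4*, -2.12 to 0.47 for *Plin1*, -2.16 to 0.18 for *Cfd* and -1.67 to -0.42 for *Retn*, with a lowest adjusted p of 0.138. The medians ranged from -1.52 to 0.51 for brown fat and from -1.76 to 0.18 for general adipocyte genes. Beyond the libraries left out, the cause of these changes was not tested. Same-numbered libraries deviated from their group means with r = 0.227, 0.072 and -0.029. Whether they shared anything beyond the number cannot be told from these values. With the number as a replicate block 0 genes passed, *Ucp1* remained at -1.59 (adjusted p = 0.345) and *Retn* at -1.23 (adjusted p = 0.107), and with the length and GC correction added *Cidea* turned to 0.09. KOb/c 1 correlated best with WT 1, whereas KOb/c 2 correlated best with WT 3 (0.105) and KOb/c 3 with WT 2 (0.155). Depth limits *Elovl3*, with 1 and 2 reads in KOb/c 1 and WT 1.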

Other observations

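Markers of other tissues that can adhere to a heart were also uneven over the libraries. The sums of the skeletal muscle markers and of the listed T cell markers were, like the 8 genes, lowest in KOb/c 1. The 6 mesothelial markers summed to 1042 to 1254 normalized counts in WT 1, KOb/c 1 and WT 2, and to 1972 to 2977 in KOb/c 3, KOb/c 2 and WT 3, an order unlike that of *Ucp1*. Their median log2 fold change was 0.29 (0.71 without KOb/c 1, 0.02 without the library labelled KOb/c 2). *Upk3b*, a uroplakin and the highest of them, was at 1310 in WT 3 and 252.0 in WT 1. *Upk1b* and *Lrrn4* had 0.75 and 0.46 and *Wt1* -0.39, with limma adjusted p-values of 0.605, 0.734 and 0.307.

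Skeletal muscle markers were highest in the library labelled KOb/c 2, where the 5 listed of 6 (*Myh4* was not) summed to 1614.7 normalized counts, and lowest in KOb/c 1, at 55.6, against 146.3 to 464.0 in the remaining 4 libraries. KOb/c 1 was the lowest library for 3 of the 5, and its median level was 12.1% of the mean of the other 5 libraries. *Tnnt3*, fast skeletal troponin T and the highest, was at 802.2 in the library labelled KOb/c 2 and 11.9 to 187.7 elsewhere. The skeletal myosin genes *Myh1* and *Myh2* had -1.06 and -0.95 and *Actn3* 0.46, and the median was -0.43 (0.78 without KOb/c 1, -2.0 without the library labelled KOb/c 2).

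Of 8 thymus and T cell markers 3 were listed, and *Cd3e*, *Rag1*, *Ptcra*, *Dntt* and *Themis* were not. The 3 had a sum of 28.8 normalized counts in KOb/c 1, the lowest, and 45.4 to 96.7 elsewhere. The median was -0.09 (0.38 without KOb/c 1, -0.44 without the library labelled KOb/c 2), and 2 of the 3 were lowest in KOb/c 1. The part of these tissues in the results for the 8 genes was not tested. *Lck*, a T cell kinase, was the highest, *Cd3g* had -0.67 and *Cd8b1* 0.11. Of 6 lung epithelium markers, *Ager* alone was listed, at 9.30 to 22.7, with a log2 fold change of -0.54 and a limma adjusted p of 0.392. Among the 7 heart muscle markers, *Myh6* was the highest, *Ryr2*, *Myh6* and *Myl2* had 0.61, 0.55 and -0.18 with limma adjusted p-values of 0.0815, 0.119 and 0.340, and the median was -0.09 (-0.12 without KOb/c 1).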
